A study of Macaca mulatta with 2 samples.

Results

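The 10 genes described here belong to the NRF2 antioxidant pathway and were measured in cultured Sertoli cells of pubertal and infant rhesus macaques. They were HMOX1, NQO1, GCLM, GCLC, TXNRD1, TXN, ME1, NFE2L2, KEAP1 and SQSTM1, and every non-control probe that carried one of these names was taken. This gave 10 genes with 14 probes, out of 41000 probes on the array, and all 14 passed the filter that left 25768 probes and 19709 genes. The genes were selected on the pubertal-over-infant ratios of these same arrays, so their own ratios and levels are given as a description, with no test.

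The data were 2 two-colour Agilent microarrays, each of which set the RNA of 1 pubertal culture against that of 1 infant culture. Animals of 18 to 22 months gave the pubertal cultures, after puberty had been induced over 4 to 5 weeks by intermittent gonadotropin-releasing hormone (GnRH), given as 2 min pulses of 0.15 µg/min spaced by 3 h. Infant cultures were made from males that had not reached 3 months. Cells of both ages were grown as primary cultures of testicular Sertoli cells, the somatic cells that surround and feed the germ cells, and both had been kept for 24 h with follicle-stimulating hormone (FSH) at 5 ng/ml and testosterone at 100 nM. On array 1 pubertal culture 1 was labelled with Cy5 and infant culture 1 with Cy3, and on array 2 pubertal culture 2 was labelled with Cy3 and infant culture 2 with Cy5, so that the dyes were swapped. The 4 cultures came from different animals. Only the pubertal animals had received GnRH, so age and GnRH cannot be told apart, and each culture was labelled with only 1 dye.

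NRF2, the product of NFE2L2, is a transcription factor that switches on genes for detoxification and for the repair of oxidative damage. KEAP1 holds NRF2 in the cytoplasm and presents it for degradation, until oxidants or electrophiles modify KEAP1, and the autophagy receptor SQSTM1 (p62) can draw KEAP1 away from NRF2. The targets include HMOX1, which breaks down haem to biliverdin, iron and carbon monoxide, NQO1, which reduces quinones, and GCLC with GCLM, the catalytic and modifier subunits of the enzyme that starts glutathione synthesis. TXN and TXNRD1 are thioredoxin and the reductase that recharges it, and ME1 is the cytosolic malic enzyme, a source of NADPH for these reductions. Sertoli cells are phagocytic and metabolically active, and take up the residual cytoplasm and dying germ cells of the tubule.

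The probes were human 60-base oligonucleotides, so macaque RNA was read with human sequence, and all coordinates are those of the human build hg17 in the file headers. The sequences of the 5 genes with the largest ratios are shown because the results turn on them, together with both TXN probes, which read separate places of 1 transcript. For the first 5 the last 30 bases of the probe are printed. The TXN probes are printed whole, because their coordinates run across gaps in the genome. Capitals mark the polyadenylation signal AATAAA.
HMOX1 (chr22:34114676-34114735, plus strand): ccttggtctaacttttgtgtgaaataataa
NQO1 (chr16:68301775-68301834, minus strand): ggaagagctAATAAAtctcttctttgctgc
GCLM (chr1:94066555-94066614, minus strand): aaaagaaggggttcttaactgacttaggag
TXNRD1 (chr12:103245100-103245159, plus strand): caaggtgtcttgttgcatggaagggatagt
SQSTM1 (chr5:179196315-179196374, plus strand): caaaacaagtgacatgaagggagggtccct
TXN, brighter probe (chr9:110086004-110086621, minus strand): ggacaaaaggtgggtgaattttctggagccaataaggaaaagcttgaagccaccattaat
TXN, other probe (chr9:110086642-110092677, minus strand): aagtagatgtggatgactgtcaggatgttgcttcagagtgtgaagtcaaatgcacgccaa

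Only the NQO1 probe, of the 14 probes, held AATAAA or ATTAAA on the printed strand, against 6.65% of all 41000 probes on their own strand. Macaque bases that differ from a probe lower its signal in both channels of an array alike, and were not looked for here. The exon or untranslated region under each probe was not looked up, since no annotation of hg17 was used.

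On array 1 the Cy5 channel, pubertal, had 74.8% of its 43376 spots well above background and the Cy3 channel, infant, 60.9%. On array 2 the Cy3 channel, pubertal, had 62.6% and the Cy5 channel, infant, 71.5%. Saturated spots lay almost all in Cy5, with 586 in pubertal culture 1 and 428 in infant culture 2, against 2 in pubertal culture 2 and 0 in infant culture 1. No gene of the 19709 passed limma's test at an adjusted p under 0.05 (0%), while 797 (4.04%) had an unadjusted p under 0.05. With 2 arrays the fit has 1 residual degree of freedom, and the number of arrays limits the precision of every value here. Of 18 Sertoli cell markers 18 passed the filter, though not all were bright. FSHR lay at 6.53 to 6.79 on the log2 scale in the 4 cultures, and its pubertal channel was well above background on only 1 array. Among the 18 were SOX9 with log2 ratios of -0.27 and 0.62, WT1 with 0.42 and 0.57, AMH with 0.95 and 0.00, and CLDN11 with 1.45 and 1.28. Here and below, a log2 ratio is pubertal over infant, array 1 first and array 2 second, and a value of -1 is a 2-fold lower signal in the pubertal culture. A dimmer CLDN11 probe gave 1.17 and 0.55. CST9L, also among the 18, read 4.85 and 4.58. Of the 18, 8 were higher on both arrays, 2 lower on both and 8 opposite, against 23.4%, 21.9% and 54.7% of all genes. Under median centring these were 4, 1 and 13. Pubertal culture 1 was the highest culture for 11 of the 18, pubertal culture 2 for 3, infant culture 1 for 4 and infant culture 2 for 0. Among all genes 25.8% were highest in infant culture 2.

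Of the 10 genes, 6 had a lower signal in the pubertal culture on both arrays: NQO1, GCLM, TXNRD1, TXN, KEAP1 and SQSTM1. Among all genes 21.9% were lower on both. None was higher on both, against 23.4% of all genes. The other 4 had opposite signs, against 54.7% of all genes: HMOX1, GCLC and NFE2L2 were higher on array 1 and lower on array 2 (31.5% of all genes), and ME1 was lower on array 1 and higher on array 2 (23.1% of all genes). TXNRD1 alone was at least 2-fold lower on both arrays, as were 0.35% of all genes. The counts of 6 and 0 depend on the loess step, which removes the trend of the dye ratio with intensity: under median centring of each array in its place, 2 of the 10 (NQO1 and TXNRD1) were lower on both arrays and 1 (ME1) was higher on both. That setting moved the median of all genes toward Cy5, to 0.63 on array 1 and -0.42 on array 2, and relative to those medians 3 of the 10 were lower on both. Here and below, shares of all genes by sign are those under loess. None was counted under median centring, so counts under that setting have no share to stand beside. The scanner's own processed signals and an offset of 0 gave 6 lower again. The genes were chosen with these ratios known, so nothing is read from the counts.

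The sizes were unequal between the arrays. On array 2 the genes HMOX1, NQO1, GCLM, SQSTM1 and TXNRD1 were at least 2-fold lower in the pubertal culture, 5 of 10 against 2.36% of all genes. On array 1 TXNRD1 was the 1 such gene (2.96% of all genes), and HMOX1 was the 1 gene at least 2-fold higher (4.24% of all genes). The median log2 ratio over the 10 genes was -0.36 on array 1 and -0.85 on array 2, and without HMOX1 it was -0.42 and -0.56. Over all genes the medians were 0.05 and -0.03.

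**Figure D1:**
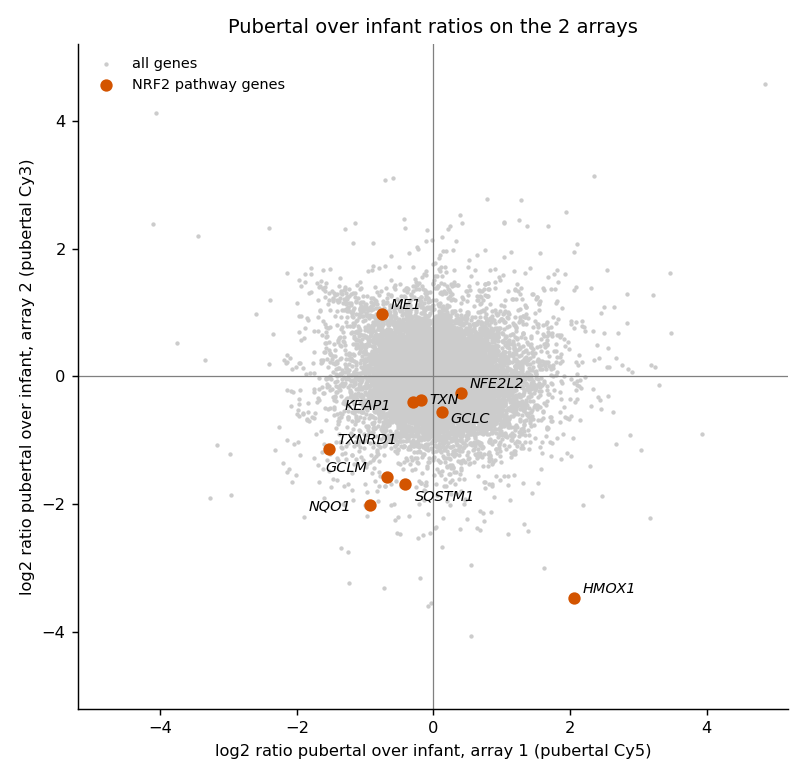
Each point is 1 gene, with its log2 ratio of pubertal over infant signal on array 1 (x axis) and on array 2 (y axis). Grey points are the 19709 genes and orange points the 10 NRF2 pathway genes: NQO1, GCLM, SQSTM1 and TXNRD1 lie in the lower left, and HMOX1 lies far to the lower right with 2.06 and -3.47.

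HMOX1 gave the most divided result of the 10 genes. Its log2 intensity, after loess within and quantile scaling of the average intensities between arrays, was 13.84 in pubertal culture 1 and 11.85 in pubertal culture 2, against 11.78 in infant culture 1 and 15.32 in infant culture 2. Pubertal culture 1 and infant culture 2 were thus the 2 high cultures, pubertal culture 2 and infant culture 1 were low and close to each other, and the age groups overlapped. The log2 ratio was 2.06 on array 1, which is 4.16-fold higher in the pubertal culture. On array 2 it was -3.47, which is at least 11.1-fold lower in the pubertal culture, a bound because the infant channel was saturated there. The mean of the 2 arrays was -0.70 ± 1.27 (moderated SE, n = 2 arrays), and it describes neither of them.

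The HMOX1 probe was printed at 10 places on each array, which allows the printing and scanning error to be seen. On array 1 the mean spot intensity before any normalization ran from 22792 to 37788 in pubertal culture 1, against 1441.5 to 1874.0 in infant culture 1. All 10 spots of the pubertal channel lay above all 10 of the infant channel, and their log2 ratios ran from 1.88 to 2.25, with an SD of 0.15. On array 2 the intensity ran from 2340.3 to 2710.5 in pubertal culture 2, against 65176 in infant culture 2, to the nearest whole number in all 10 spots, above the scanner's saturation value of 65159. The 9 spots used there, after 1 outlier was left out, gave log2 ratios from -3.54 to -3.37 with an SD of 0.05, a spread that the fixed infant value narrows. Over the 264 probes with at least 5 spots the median SD was 0.088 on array 1 and 0.086 on array 2. The SD of HMOX1 was above that of 97.3% of these probes on array 1, and above that of 4.55% on array 2. Its repeated spots still differed far less than the 2 arrays did. Spots of 1 array share the RNA and the dye, and are not replicates of a culture.

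**Figure D2:**
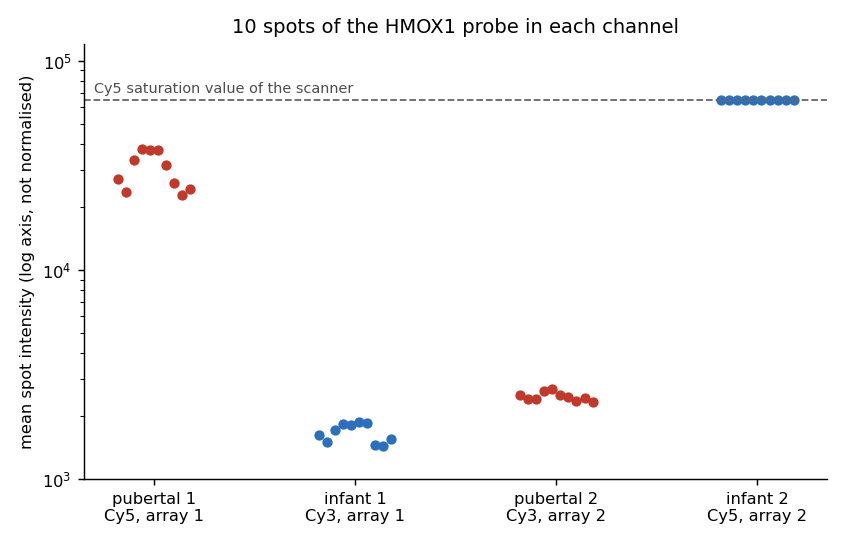
Mean intensity of the 10 spots of the HMOX1 probe in each channel, on a log axis and not normalized, with pubertal cultures in red and infant cultures in blue. Infant culture 2 lies at the saturation value in every spot, pubertal culture 1 lies between 22792 and 37788, and both Cy3 channels lie at 2710.5 or lower.

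The channels with high HMOX1 were both Cy5, and the part of dye in the result was not tested. HMOX1 was at least 2-fold higher in Cy5 than in Cy3 on both arrays, as were 49 genes (0.249%), and its mean Cy5-over-Cy3 ratio, a bound because of the saturation, was among the 2 highest of 19709 genes. In the Cy5 channels alone it was 2.79-fold higher in infant culture 2 than in pubertal culture 1, at least, given the saturation. In the Cy3 channels alone pubertal culture 2 and infant culture 1 differed by 0.07 on the log2 scale. By single arrays HMOX1 ranked as the 68th highest ratio of 19709 on array 1, and on array 2 its bound placed it among the 4 lowest. The authors' deposited table gives it a log2 ratio of 2.00 on array 1 and an empty cell on array 2.

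Of the genes of the switch, the transcription factor gene NFE2L2 differed little when loess was used. The brighter of its 2 probes (chr2:177920784-177920843) read 13.26 in pubertal culture 1 and 12.92 in pubertal culture 2, against 12.85 in infant culture 1 and 13.18 in infant culture 2. The age groups overlapped, and the log2 ratios were 0.41 and -0.26, with a mean of 0.07 ± 0.28 (moderated SE, n = 2 arrays). Under median centring the log2 ratios of this probe were larger and still opposite, at 1.58 and -1.02. The other NFE2L2 probe (chr2:177954925-177954984) was dim, at 6.23 to 6.48 in the 4 cultures, and read -0.16 and 0.05. This dim probe, not the bright one, is in the authors' deposited table, with log2 ratios of -1.17 and 0.33.

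KEAP1 (probe at chr19:10458262-10458321, minus strand), the repressor that tethers NRF2, had levels of 11.54 and 11.96 in the pubertal cultures, against 11.84 and 12.37 in the infant cultures. Each pubertal culture lay below the infant culture of its own array, but pubertal culture 2 lay above infant culture 1. The log2 ratios were -0.30 and -0.41, with a mean of -0.35 ± 0.24 (moderated SE, n = 2 arrays), and neither reached 2-fold.

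SQSTM1, which binds KEAP1 and is itself an NRF2 target, had levels of 12.42 and 12.19 in the pubertal cultures, against 12.85 and 13.87 in the infant cultures. Both pubertal cultures lay below both infant cultures, with infant culture 2 the highest. The log2 ratios were -0.42 and -1.68, which is 1.34-fold and 3.21-fold lower in the pubertal cultures, and the mean was -1.05 ± 0.37 (moderated SE, n = 2 arrays). On array 2 it was the 90th lowest ratio of 19709.

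The 2 subunits of glutamate-cysteine ligase, the first enzyme of glutathione synthesis, did not move alike. GCLM had levels of 10.27 and 11.22 in the pubertal cultures, against 10.95 and 12.79 in the infant cultures. Infant culture 2 stood above the other 3 cultures, and pubertal culture 2 lay above infant culture 1. The GCLM log2 ratios were -0.68 and -1.58, which is 1.60-fold and 2.98-fold lower in the pubertal cultures, with a mean of -1.13 ± 0.31 (moderated SE, n = 2 arrays).

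GCLC was read by 2 probes on human chromosome 6, the brighter at chr6:53470156-53470215. That probe had levels of 11.30 and 11.05 in the pubertal cultures, against 11.17 and 11.61 in the infant cultures. The age groups overlapped, and the log2 ratios were 0.12 and -0.56, with a mean of -0.22 ± 0.28 (moderated SE, n = 2 arrays). The second probe, at chr6:53471396-53471459 and near 7 on the log2 scale, gave 0.30 and -0.17, and so had the same signs.

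In the thioredoxin system the reductase differed more than its substrate. TXNRD1 had levels of 9.09 and 10.47 in the pubertal cultures, against 10.62 and 11.61 in the infant cultures. Both pubertal cultures lay below both infant cultures, pubertal culture 2 only by a little. The log2 ratios were -1.53 and -1.14, which is 2.89-fold and 2.20-fold lower in the pubertal cultures, with a mean of -1.34 ± 0.25 (moderated SE, n = 2 arrays). TXNRD1 was the 146th lowest ratio of 19709 on array 1 and the 302nd lowest on array 2. Among the 6 genes lower on both arrays it was the one with the larger ratio, in size, on array 1.

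TXN, thioredoxin itself, was bright in all 4 cultures, at 14.72 and 14.74 in the pubertal cultures, against 14.91 and 15.11 in the infant cultures. Both pubertal cultures lay below both infant cultures, by small amounts. The mean spot intensity of this probe was 54501 in pubertal culture 1 and 60903 in infant culture 2, near the Cy5 saturation value of 65159. Whether that narrows its ratios was not tested. The log2 ratios were -0.19 and -0.37, with a mean of -0.28 ± 0.24 (moderated SE, n = 2 arrays). The other TXN probe gave -0.21 and -0.59, again lower in the pubertal culture on each array.

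NQO1, the quinone reductase, had levels of 8.01 and 8.85 in the pubertal cultures, against 8.94 and 10.86 in the infant cultures. Both pubertal cultures lay below both infant cultures, with pubertal culture 2 just under infant culture 1, and infant culture 2 stood apart as the highest. The log2 ratios were -0.93 and -2.02, which is 1.90-fold and 4.04-fold lower in the pubertal cultures, and the mean was -1.47 ± 0.34 (moderated SE, n = 2 arrays). This mean was the lowest of the 9 genes without saturation, and on array 2 NQO1 was the 41st lowest ratio of 19709.

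ME1 was the 1 gene of the 10 with a higher pubertal signal on array 2, while on array 1 it was 1 of the 7 genes with a lower one. It had levels of 12.51 and 13.52 in the pubertal cultures, against 13.27 and 12.55 in the infant cultures. Pubertal culture 2 and infant culture 1, both in Cy3, were the 2 high cultures, and the age groups overlapped. The log2 ratios were -0.75 and 0.98 for this probe (chr6:83978441-83978500), with a mean of 0.11 ± 0.46 (moderated SE, n = 2 arrays). The second probe (chr6:83982945-83983004) gave -0.65 and 0.91, so both probes of ME1 had this order. That second probe stands in the authors' deposited table with -0.79 and 1.06.

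**Figure D3:**
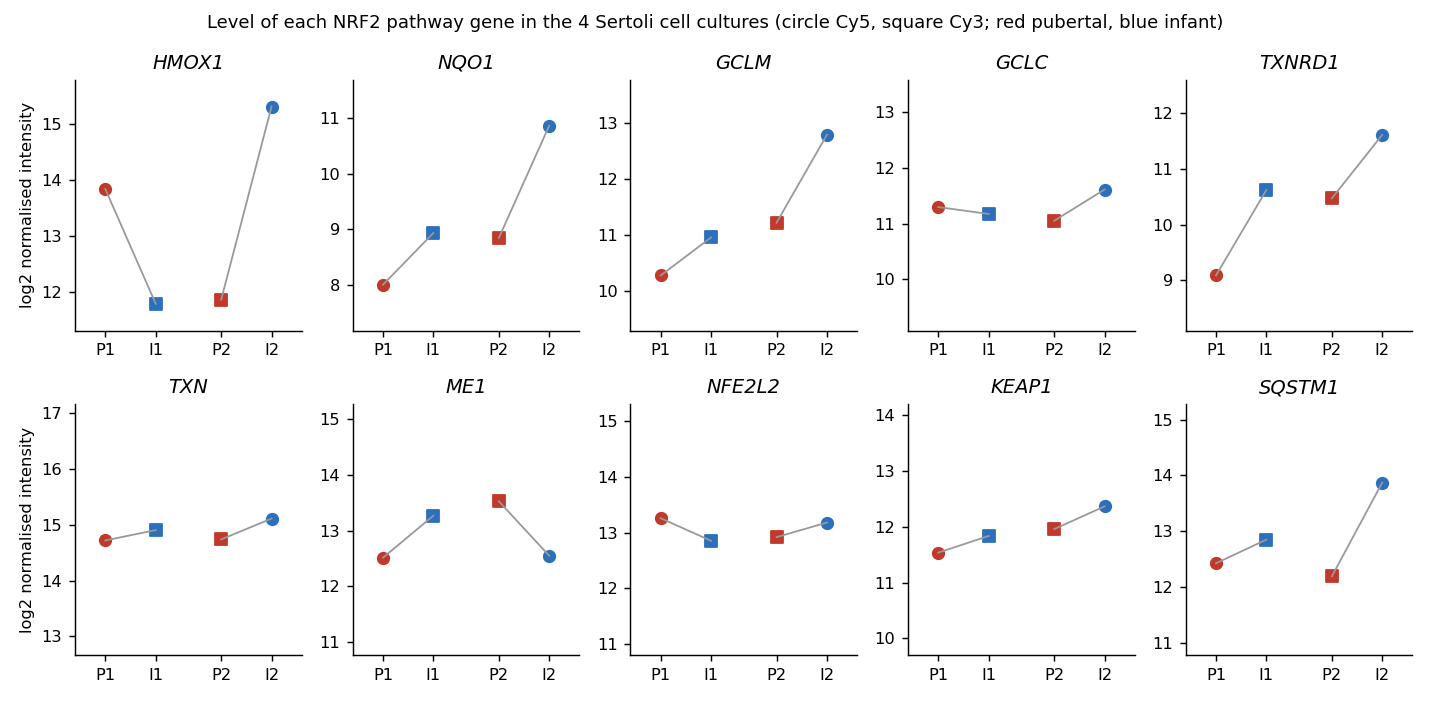
Log2 normalised intensity of each gene's brightest probe in pubertal culture 1 (P1), infant culture 1 (I1), pubertal culture 2 (P2) and infant culture 2 (I2), with lines joining the 2 cultures of an array, circles for Cy5 and squares for Cy3. Every panel spans the same number of log2 units, and infant culture 2 is the highest culture for 8 of the 10 genes, while ME1 is highest in pubertal culture 2 and NFE2L2 in pubertal culture 1.

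Infant culture 2 had the highest level of the 4 cultures for 8 of the 10 genes, all but ME1 and NFE2L2, while 25.8% of all genes were highest there. Because both ages had a Cy5 and a Cy3 channel, cultures labelled with the same dye on different arrays were also set side by side, a comparison chosen after the ratios had been seen. In Cy5, pubertal culture 1 was lower than infant culture 2 for 9 of the 10 genes, against 49.2% of all genes, with a median difference of -1.14 on the log2 scale. Infant culture 2 was at least 2-fold above pubertal culture 1 for 5 of them, against 2.38% of all genes. It was 7.23-fold higher for NQO1, 5.75-fold for GCLM, 5.75-fold for TXNRD1 and 2.72-fold for SQSTM1, beside the bound for HMOX1. In Cy3, pubertal culture 2 was lower than infant culture 1 for 5 of the 10 genes, against 47.6% of all genes, with a median difference of -0.01. Both comparisons had a lower pubertal level for 5 of the 10 genes, against 22.8% of all genes. None of the 10 reached a 2-fold difference in Cy3, and 4.16% of all genes did. The largest of the 10 in Cy3 was SQSTM1, at -0.66. The Cy5 comparison and the Cy3 comparison involve different animals, and each sets a channel of 1 array against a channel of the other. Whether the gap in Cy5 belongs to age, to array, to infant culture 2 or to pubertal culture 1 cannot be told apart.

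Of 40 other genes chosen for the roles that NRF2 targets have, 36 were measured and 0 passed limma's test at an adjusted p under 0.05. Of the 36, 18 (50%) were lower in the pubertal culture on both arrays, 3 were higher on both and 15 had opposite signs, beside 21.9%, 23.4% and 54.7% of all genes. The list covers the roles and is not a list of established targets, since CHAC1, TXNIP, TXN2 and HMOX2, for example, are not known mainly as such. Under median centring 3 of the 36 were lower on both arrays and 1 was higher, or 14 and 2 relative to the median of all genes. The shares of all genes above are those under loess and do not apply to these counts. Those 3 were 1 gene of the thioredoxin list and 2 of the list for quinone, haem and iron. The difference was larger on array 2 here too, the median log2 ratio being -0.17 for array 1 and -0.65 for array 2. On array 2, 28 of the 36 (77.8%) were lower in the pubertal culture, where 53.4% of all genes were. Infant culture 2 was the highest culture for 22 of the 36 (61.1%, against 25.8% of all genes), pubertal culture 1 for 3, pubertal culture 2 for 2 and infant culture 1 for 9.

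Among the 9 measured genes of glutathione metabolism and transport, 3 were lower on both arrays, 1 was higher on both and 5 had opposite signs. CHAC1, which degrades glutathione, had levels of 9.26 and 9.24 in the pubertal cultures, against 9.46 and 12.39 in the infant cultures, and log2 ratios of -0.20 and -3.15. GSR, glutathione reductase, had levels of 9.08 and 8.42 in the pubertal cultures, against 9.24 and 10.90 in the infant cultures, and log2 ratios of -0.15 and -2.49. In both genes infant culture 2 stood apart from the other 3 cultures. The export pump gene ABCC1 read -0.20 and -0.58, and ABCC4, another export pump gene, read 0.40 and 0.95. SLC7A11, the cystine transporter gene named here after its values were seen, had levels of 7.36 and 7.70 in the pubertal cultures, against 7.33 and 10.06 in the infant cultures.

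Among the 7 genes beside TXN and TXNRD1 that serve thioredoxin and peroxiredoxin, 5 were lower on both arrays, 1 was higher on both and 1 had opposite signs. SRXN1, which restores overoxidised peroxiredoxins, had levels of 11.75 and 11.57 in the pubertal cultures, against 11.80 and 14.02 in the infant cultures, and log2 ratios of -0.05 and -2.45. The mitochondrial thioredoxin gene TXN2 read -0.96 and -0.79, the thioredoxin inhibitor gene TXNIP -0.36 and -0.71, and the peroxiredoxin gene PRDX1 -0.60 and -0.33. For these 3 genes the 2 arrays were closer to each other than for SRXN1.

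Of the 7 NADPH genes beside ME1, 3 were lower on both arrays, 1 was higher on both and 3 had opposite signs. PGD, of the pentose phosphate pathway, read -0.27 and -1.44. TKT, transketolase, read -0.18 and -0.34, and the mitochondrial malic enzyme gene ME3 read 0.30 and 0.22. A further ME3 probe read -0.33 and 0.31, so the signs of this gene, the 1 higher on both, were not shared by its probes. ME2, the other mitochondrial malic enzyme, named here after its values were seen, had log2 ratios of -1.54 and 1.14, with the same signs as ME1.

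Of the 13 measured genes for quinone, haem and iron handling, 7 were lower on both arrays, 0 were higher on both and 6 had opposite signs, and all 13 were lower on array 2. SLC40A1, ferroportin, which exports iron, had levels of 9.41 and 9.47 in the pubertal cultures, against 10.84 and 10.50 in the infant cultures. It was the 1 gene of the 36 at least 2-fold lower on both arrays, with log2 ratios of -1.42 and -1.03. FTL, the ferritin light chain, had levels of 12.42 and 12.08 in the pubertal cultures, against 12.96 and 14.52 in the infant cultures, with log2 ratios of -0.54 and -2.44. The iron-binding protein gene PIR read -1.13 and -0.95. BLVRA, which reduces the biliverdin that HMOX1 makes, read -0.88 and -0.74.

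**Figure D4:**
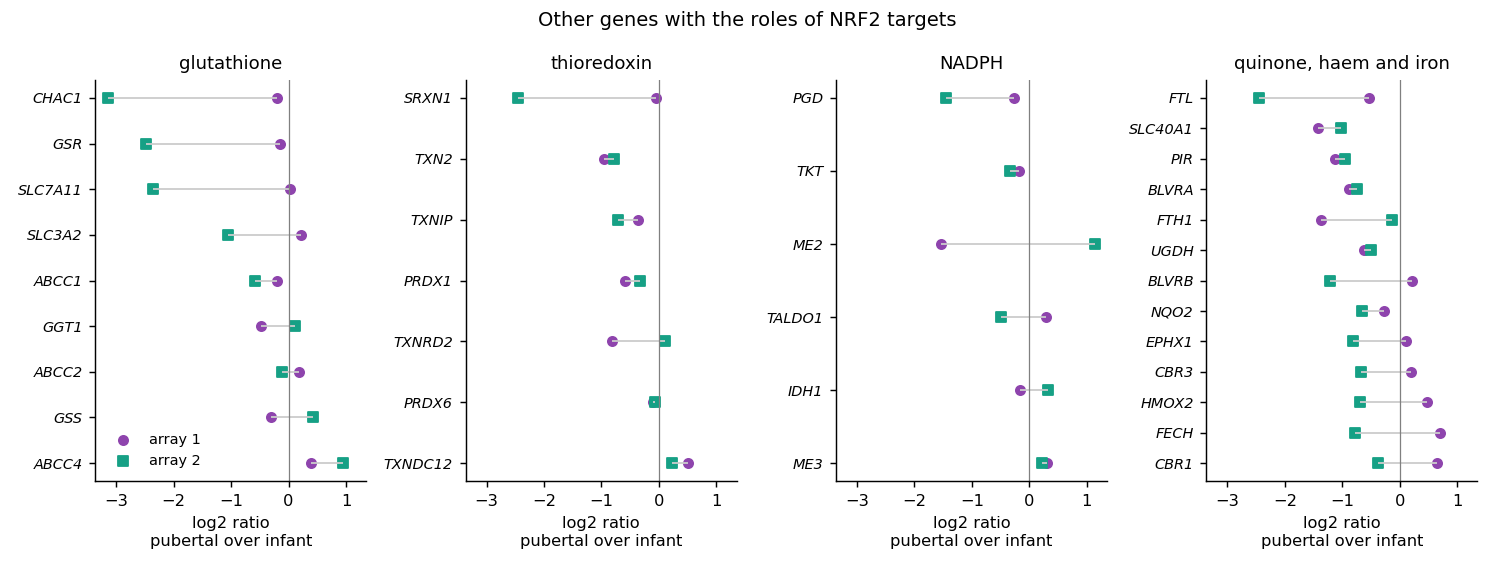
Log2 ratio of pubertal over infant signal for 35 of the 36 measured other genes with the roles of NRF2 targets, in panels by role, with a circle for array 1, a square for array 2 and a line joining them. CHAC1, GSR, SLC7A11, SRXN1 and FTL lie under -2 on array 2 but between -0.54 and 0.03 on array 1, while SLC40A1, PIR and BLVRA are lower by like amounts on both.

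The 17 other genes of the switch and its partners were divided, with 3 higher on both arrays, 4 lower on both and 10 of opposite signs (2, 1 and 14 under median centring). Among all genes the shares under loess were 23.4%, 21.9% and 54.7%. The medians of the 17 were -0.10 and 0.00. BACH1, the repressor that competes with NRF2 at HMOX1, read -0.78 and -0.66. MAFK, a small MAF protein that pairs with both NRF2 and BACH1, read 0.65 and 0.59, the related factor gene NFE2 read 0.53 and 0.64, and NFE2L3 read 0.62 and 0.32. A further MAFK probe had a mean log2 ratio of 0.03, and a further NFE2L3 probe 0.15, so neither gene's difference was seen at that size by its second probe.

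Lists of neighbouring stress responses were described in the same way, with shares of all genes under loess only. The 7 genes of haem synthesis, which makes the substrate of HMOX1, had 4 higher and 2 lower on both arrays (23.4% and 21.9% of all genes), but 0 higher and 2 lower under median centring. Among them ALAD read 0.47 and 0.40 (a further probe 0.15 and 0.09), PPOX 0.69 and 0.04, UROS -0.83 and -0.52, and CPOX -0.89 and -0.34. Of 13 heat shock genes, 1 was higher, 4 lower and 8 opposite (23.4%, 21.9% and 54.7% of all genes), with medians of -0.08 and -0.28. Under median centring 0 were higher and 1 lower. The named heat shock genes were HSPB1 at -0.50 and -0.63, BAG3 at -0.08 and -0.85, HSPA1A at -0.15 and -0.42, and HSPA1L at -0.16 and -0.29. A further HSPA1A probe read 0.001 and -0.53, so it was not lower on both arrays. HSPA1L was dim, at 6.36 to 6.65, with its pubertal channel well above background on only 1 array. Of 9 hypoxia genes, 1 was higher and 6 were lower on both arrays, against 23.4% and 21.9% of all genes, but under median centring 0 were higher and 2 lower. NDRG1 read -0.93 and -1.34, EGLN3 -1.25 and -0.67, BNIP3 -1.20 and -0.31, and CA9 -0.46 and -0.29, although a further NDRG1 probe had a mean of only -0.18. None of these genes passed limma's test at an adjusted p under 0.05.

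The metallothioneins, small metal-binding proteins, mostly had opposite signs on the 2 arrays, as HMOX1 did. Of the 9 measured, 8 were higher on array 1 and lower on array 2, against 31.5% of all genes, and 1, MT1E at -0.14 and -1.94, was lower on both. The median of the 9 was 0.68 for array 1 and -2.26 for array 2. The zinc exporter gene SLC30A1, which the list also held, read -0.10 and 0.08 and is not counted. The sequences of metallothioneins are alike, so their probes can share RNA and are not separate observations. The 5 named genes with the pair of ratios nearest to that of HMOX1, by Euclidean distance over the 2 arrays, were MT2A (1.39 and -2.42, distance 1.24), CTSL2 (1.33 and -2.31), MT1G (1.10 and -2.46), ANXA10 (2.20 and -2.01) and CXCR4 (0.55 and -2.94). The distance rests on 2 arrays only and uses the saturated array 2 value of HMOX1, which is a bound, so the distances and their order hold for that bound only. MT2A had levels of 14.07 and 11.33 in the pubertal cultures, against 12.67 and 13.75 in the infant cultures, so pubertal culture 1 was its highest and pubertal culture 2 its lowest.

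Markers of other cells were measured beside these results, since macrophages that clear red cells are known for high HMOX1. Of 18 macrophage and leukocyte markers 10 were measured, and 4 were higher on both arrays, 1 lower on both and 5 opposite. Among all genes the shares were 23.4%, 21.9% and 54.7%. Their summed normalised intensity was 2115 and 1622 in the pubertal cultures, against 1282 and 1635 in the infant cultures. Of the 10 markers, 3 were highest in pubertal culture 1, 5 in pubertal culture 2 and 2 in infant culture 2, where 25.8% of all genes were highest. CD163, the haemoglobin scavenger receptor, read 2.44 and -0.36. Its level of 9.63 in pubertal culture 1 was the highest of any of the 10 markers, and so weighs on the sum there. CD14 read 0.17 and -0.03, CD68 -0.34 and -0.07, and CSF1R 0.18 and 0.53. The defining markers C1QA, C1QB, C1QC, MSR1, LYZ, HLA-DRA and VSIG4 did not pass the filter, and no probe was named MRC1. Of 9 erythroid markers 5 were measured, with sums of 721.5 and 718.4 in the pubertal cultures, against 731.7 and 717.4 in the infant cultures. These 5 probes were dim, at 6.43 (SLC4A1) to 8.22 (HBM) on the log2 scale. The added offset and remaining background form a part of such sums, and the size of that part was not tested. Near-equal sums therefore do not show equal erythroid content. The macrophage and leukocyte sums also include many dim probes and share this limit. HBA1 read -0.02 and -0.17 and ALAS2 0.27 and 0.16, and HBB was not well above background in any channel.

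Of 12 fibroblast and stroma markers, 10 were lower in the pubertal culture on both arrays and 0 were higher on both, against 21.9% and 23.4% of all genes, with medians of -1.27 and -0.70, and none passed limma's test. Their summed intensity was 33860 and 51660 in the pubertal cultures, against 83730 and 76030 in the infant cultures. Under median centring, for which the share of all genes was not counted, 8 of the 12 were lower on both. Of the 6 peritubular myoid markers, 2 were higher on both arrays, 2 lower and 2 opposite, against 23.4%, 21.9% and 54.7% of all genes. Their summed intensity was 14370 and 35560 in the pubertal cultures, against 9979 and 48440 in the infant cultures. It was thus higher in both cultures of array 2 than in both of array 1. Of the 6 markers, 4 were highest in infant culture 2 (25.8% of all genes) and 2, ACTA2 and ACTG2, in pubertal culture 2. The germ cell markers were higher on both arrays for 9 of 10, against 23.4% of all genes, with medians of 0.94 and 0.61. Of the Leydig cell markers, 7 of 8 were measured, and 1 was higher on both arrays, 2 lower on both and 4 opposite (23.4%, 21.9% and 54.7% of all genes). The 2 lower were CYP17A1 at -2.117 and -1.455 and DLK1 at -1.318 and -1.99. The markers summed to 135000 and 157700 in the pubertal cultures, against 132400 and 85890 in the infant cultures. This sum rests on bright probes, and those of STAR, CYP11A1, HSD3B1 and HSD3B2 were saturated in a pubertal channel. The endothelial markers, 4 of 7 measured, summed to 887 and 838.1 in the pubertal cultures, against 710.5 and 749.2 in the infant cultures. These 4 probes were dim too, at 6.645 (PECAM1) to 8.557 (SOX18), so their sums have the limit given for the erythroid sums. The part of the listed cell types in the ratios of the 10 genes was not tested. In cultures read as a whole, fewer cells of a type and less RNA per cell cannot be told apart.

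The authors' deposited table of log2 ratios held 7 of the 14 probes among its 4848, each probe in it being at least 1 in size in 1 column. Its values had the direction of pubertal over infant when set against the scanner's ratios. It gave NQO1 as -1.08 and -2.31, GCLM as -0.70 and -1.62, TXNRD1 as -1.76 and -1.12, and SQSTM1 as -0.56 and -1.64, with the same signs as here. How that table was normalized is not given in the sources used here.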

How the data were processed

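Each deposited scanner file gives each spot's mean intensity and its local background as a median, for both channels and not normalized, per the file headers. The deposited files also hold processed intensities and their log10 ratio (Cy5 to Cy3), which the scanner software computed, and flags for each spot as a further unit; the submitters' processing notes name that software as Agilent Feature Extraction 9.5.1.1. The authors' deposited table holds log2 ratios of 4848 probes, with 1 column per array, and its scale and direction were found by setting it against the scanner's ratios (slopes 1.006 and 1.003; medians of its columns -0.37 and 0.12; empty cells 342 and 355). Its centring is not known.

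Mean intensities were background-corrected with normexp (offset 50, which shrinks the ratios of dim probes), normalized by loess within each array and turned to pubertal over infant, in limma 3.58.1 under R 4.3.3. Control spots and outlier spots (122 and 108) were left out, saturated spots were kept, and spots of a probe were averaged. A probe was kept if 1 age group had it well above background on both arrays, and 15232 were not. The brightest probe stood for a gene. Levels per culture were scaled between arrays with Aquantile and are compared within a probe only. The limma test (lmFit and eBayes, two-sided, Benjamini-Hochberg) used 1 residual and 3.87 prior degrees of freedom, and its moderated standard errors are printed. It was tested on simulated data. The arrays shared 1 slide and 1 scan, so neither could be a block, and a dye term leaves no residual degree of freedom.

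The 10 genes, the gene lists and the rules were chosen with earlier results of these data known. Named are all 10 genes, the 4 genes per list with the largest mean ratio among those of 1 sign, the 5 genes nearest to HMOX1 and set markers of each cell type. Of these, 1 listed gene is counted in its list but not reported here. Where nothing else is said, a name stands as the files give it, so CTSL2 is CTSV. Alternatives were the scanner's processed signals, offset 0, median centring, 2 other filters on dim probes, the mean of all probes of a gene, leaving out saturated spots, an intensity trend, each array alone, and same-dye comparisons added after seeing the data. No column of another sample was present (0).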

Additional observations from a re-analysis of the deposited data

How the results depend on the processing

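The mean ratios of the 10 genes kept their sign in 69 of 69 combinations of gene and alternative with both arrays. Many of these could not differ, since the 2 other filters and leaving out saturated spots gave unchanged values for every gene they kept. The mean also hides changes on array 1. Under median centring the array 1 ratio turned positive for GCLM (0.24), TXN (1.11), ME1 (0.41), KEAP1 (0.75) and SQSTM1 (0.72). That setting also gave NFE2L2 1.58 and -1.02 and GCLC 1.12 and -1.20, further apart than with loess. With 1 array, however, HMOX1, GCLC, NFE2L2 and ME1 change sign, since their arrays oppose each other (HMOX1 reads 2.06 from array 1 alone and -3.47 from array 2 alone). HMOX1 could not be given a value without saturated spots, and elsewhere it read 2.03 to 3.21 on array 1 and -4.26 to -3.47 on array 2. Of the 10 genes, 6 were lower on both arrays, but 2 under median centring (NQO1 and TXNRD1) and 5 in the same-dye comparison. On array 1 alone 7 were lower, and on array 2 alone 9. Under median centring the means of TXN (-0.08), KEAP1 (-0.18) and GCLC (-0.04) were smaller, and those of ME1 (0.31) and NFE2L2 (0.28) were larger. The counts over all genes depended on the setting. From the scanner's processed signals 218 genes were at least 2-fold lower and 277 higher on both arrays, and 150 were at least 2-fold higher in Cy5 on both. With offset 0 these were 130, 165 and 111. With median centring 23 were lower and 1507 higher in Cy5, against 69 and 49 with loess. In the same-dye comparison 42 were lower. On single arrays 466 to 583 were lower, 462 to 835 higher and 466 to 835 higher in Cy5. The limma test called 0 genes, and 1 gene, CST9L, with offset 0, with median centring and with an intensity trend. The causes were not tested. Each array's ratio is a difference within 1 pair, so the limma test is itself paired, and no fit with a further replicate block could be made. Signal over background limits the dimmer probes of NFE2L2 and GCLC, and saturation limits HMOX1.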
